A study of Mus with 16 samples.

Results

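Cell cycle genes were taken as a set of 45, matched by gene symbol in a table of 38087 genes. The set held 13 genes of S phase, the stage at which DNA is copied, 6 genes of G1/S control, which set entry into that stage, and 26 genes of mitosis, at which the copied chromosomes are parted. Genes entered by name and not by an expression value, but the set was chosen with earlier results of these data known. All 45 genes were in the table, and all 45 were among the 19340 genes kept for testing by a filter on low counts. RNA had been sequenced from B16 tumours, a transplantable melanoma of C57BL/6 mice, to ask what B cells contribute when PD-L1, a ligand that restrains T cells, is blocked by antibody. Tumours grew under the skin for 7 days in C57BL/6 mice, 3 doses of anti-PD-L1 followed at 3-day intervals, and the tumours were removed 3 days after the last dose. There were 4 groups of 4 libraries, each from a different mouse: B cell-depleted with anti-PD-L1, wild-type (WT) with anti-PD-L1, B cell-depleted untreated and WT untreated. All groups carried the same kind of tumour in the same strain, and the methods describe female mice. Column names call the depleted groups BKO, so they may have been knockout mice, and how these mice came to lack B cells was not stated. The sub-line of B16 was not stated either, and the design text also mentions an injection of 3M-052 or control into the tumour that the labels of single samples do not name. The libraries of each group are lettered A to D, the letters pair nothing across groups, and values are listed below in that order.

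The cell cycle runs in a fixed order. Cyclin D with Cdk4 and cyclin E with Cdk2 free the E2F factors, which turn on genes for DNA copying. Cdc6 and Cdt1 load the ring of Mcm2 to Mcm7 onto origins, where it becomes the helicase that opens DNA, and Pcna holds the polymerases to their template. In G2, Foxm1 turns on mitotic genes, cyclins A and B drive Cdk1, and the Aurora, Bub1 and Plk1 kinases govern spindle and kinetochores until Cdc20 and Ube2c, acting with the anaphase-promoting complex, bring about the destruction of cyclins. Melanoma cells of a growing B16 tumour divide fast, so they are a main source of such RNA, and dividing immune and stromal cells add to it.

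Total counts ran from 12.5 to 35.6 M per library. Levels are given as CPM, read counts divided by library size on a fixed scale, after each library size was multiplied by a normalization factor (TMM). The table lists as length the whole span of each gene, introns included, and how reads were counted where spans overlap, by strand or not, was not given. Library B of the depleted untreated group stood apart, with a median correlation of log2 CPM to its own group of 0.931, against 0.972 to 0.989 in the other 15 libraries. Its values followed the GC content of genes most steeply. The slope of log2 CPM on GC content (per 10 percentage points, relative to the mean library) was -0.72 in it and -0.46 in library D of the WT anti-PD-L1 group, and lay between -0.25 and 0.32 in the other 14. Slopes of the WT anti-PD-L1 libraries were -0.09, -0.18, -0.25 and -0.46. They lay below all those of depleted anti-PD-L1 (-0.04, 0.06, 0.20 and 0.22) and of WT untreated libraries (0.16, 0.14, 0.25 and 0.20). Slope and group thus varied together where WT anti-PD-L1 tumours were compared with either of these groups. The 10 melanoma markers, all detected, summed to 24398 to 29082 CPM. The 8 B cell markers summed to 2.19 to 4.88 CPM in depleted and 2.45 to 3.35 CPM in WT anti-PD-L1 tumours, and to 3.20 to 6.06 CPM in depleted and 2.47 to 6.77 CPM in WT untreated tumours, so these ranges overlapped. Igkc, the constant region of the kappa light chain, had 0 counts in all 8 depleted libraries, which allows up to 0.0862 to 0.237 CPM by library (3 counts, counting error only), and 0.0276 to 1.42 CPM in the 8 WT libraries. The 9 T cell markers summed to 2.49 to 6.15 CPM over all libraries. Of these sums Lck made up 2.17 CPM at the lowest (depleted untreated B) and 4.89 CPM at the highest (depleted anti-PD-L1 A), so they mostly reflect this gene. In whole tumours, fewer cells of a type and less RNA per cell cannot be told apart.

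Depleted tumours had lower S phase scores than WT tumours under both treatments. The score of a library is the mean, over the genes of a list, of log2 CPM relative to the mean of each gene over the 16 libraries. S phase scores in anti-PD-L1 tumours were -0.32, -0.05, -0.02 and -0.04 in depleted and 0.29, 0.07, 0.10 and 0.03 in WT mice. In untreated tumours they were -0.23, -0.02, -0.14 and -0.34 in depleted and 0.20, 0.21, 0.06 and 0.21 in WT mice. Every depleted library lay below every WT library of its treatment. Group means were -0.11 ± 0.14 in depleted and 0.12 ± 0.11 in WT anti-PD-L1 tumours, a difference of -0.23, and -0.18 ± 0.14 in depleted and 0.17 ± 0.07 in WT untreated tumours, a difference of -0.35 (SD, n = 4 each). No test was run on a score, because the genes were chosen with earlier results of these data known. Leaving out 1 library at a time gave differences from -0.26 to -0.16 in anti-PD-L1 tumours and from -0.41 to -0.30 in untreated tumours. The -0.41 was without library B of the depleted group. In anti-PD-L1 tumours the difference was -0.36 over the 10 genes whose span no other gene overlaps. This leaves out Mcm7, Cdt1 and Gins2, whose fitted log2 changes there were 0.17, 0.06 and 0.39. Melanoma markers summed to 24398 to 26786 CPM in depleted and 26532 to 29057 CPM in WT anti-PD-L1 tumours, and to 25687 to 28073 CPM in depleted and 24999 to 29082 CPM in WT untreated tumours. Over the 16 libraries the S phase score went with the melanoma marker score (r = 0.71, rho = 0.65, 0.58 without the 2 libraries farthest from the median marker score). With deviations from group means r was 0.48. The part of tumour cell content in the S phase difference was not tested.

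Mitosis scores did not follow the same pattern. They were -0.06, -0.03, -0.07 and -0.12 in depleted and 0.23, 0.17, 0.05 and 0.09 in WT anti-PD-L1 tumours, again with no overlap, and the means were -0.07 ± 0.04 in depleted and 0.14 ± 0.08 in WT mice. In untreated tumours they were -0.21, 0.32, 0.04 and -0.34 in depleted and -0.01, 0.11, -0.17 and 0.02 in WT mice. The untreated depleted libraries were thus spread on both sides of the WT ones, from the lowest score of the series in D to the highest in B. Their mean was -0.05 ± 0.29 in depleted and -0.02 ± 0.12 in WT mice, a difference of -0.03. It was 0.02, -0.15, -0.06 and 0.06 without depleted library A, B, C or D in that order, 0.0079 without WT library B and -0.08 without WT library C, so its sign depended on single libraries. G1/S control scores averaged -0.04 ± 0.04 in depleted and 0.04 ± 0.07 in WT anti-PD-L1 tumours, which overlapped, and -0.11 ± 0.08 in depleted and 0.11 ± 0.05 in WT untreated tumours, which did not. The mean G1/S difference in anti-PD-L1 tumours was -0.08, -0.04 without WT library D, and 0.07 over the 3 of its 6 genes whose span is not shared. Anti-PD-L1 and untreated tumours overlapped for all 3 scores, in depleted and in WT mice. The S phase difference of anti-PD-L1 from untreated tumours in WT mice was -0.05, and 0.10 over the genes whose span is not shared. It was -0.10 without anti-PD-L1 library A, -0.09 without untreated library C, -0.03 without anti-PD-L1 library B and -0.02 without anti-PD-L1 library D.

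**Figure D1:**
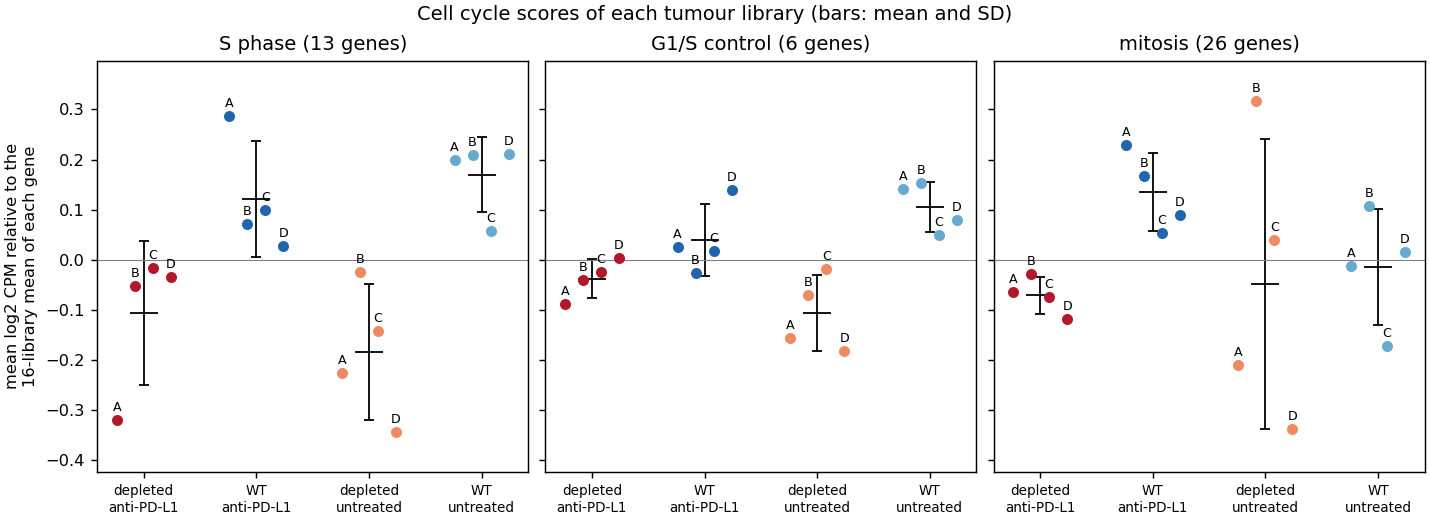
S phase, G1/S control and mitosis scores of the 16 libraries, as mean log2 CPM of the genes of each list relative to the 16-library mean of each gene. Points are libraries A to D of each group and bars give the group mean and SD. S phase scores of depleted libraries all lay below those of WT libraries of the same treatment, and the depleted untreated group ranged from -0.34 to 0.32 in the mitosis panel.

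The mitosis score followed the GC slope of a library and the S phase score did not to the same degree. Pearson's r over the 16 libraries was -0.79 for mitosis (rho = -0.85, -0.74 without the 2 libraries of most distant slope) and -0.12 for S phase (rho = -0.23, -0.22 without those 2). With deviations from group means the values were -0.80 for mitosis and -0.27 for S phase. The slope and the scores are made from the same libraries, so these are descriptions and carry no p. S phase and mitosis scores were themselves related, with r of 0.59 over the 16 libraries (rho = 0.59) and 0.67 for deviations from group means. For single genes, r with the GC slope was negative in 21 of 26 mitosis genes, with a median of -0.66, and in 6 of 13 S phase genes, with a median of 0.04, beside a median of 0.07 over all 19340 genes. Single S phase genes ran from -0.89 for Rrm1 to 0.86 for Gins2. The S phase score thus averages over opposite values, and its low r does not mean that its genes varied apart from the slope. The part of GC-dependent recovery of RNA or sequence in the mitosis scores was not tested.

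The helicase subunits did not vary as 1 block. Mcm2 (chromosome 6, 88883475 to 88898780), a helicase subunit, had 297, 431, 495 and 463 CPM in depleted and 593, 470.5, 493 and 477 CPM in WT anti-PD-L1 tumours. In untreated tumours Mcm2 had 431, 389, 369 and 380.0 CPM in depleted and 528, 518, 522 and 587 CPM in WT mice. Depleted untreated libraries all lay below WT untreated ones, while the anti-PD-L1 groups overlapped and library A of the depleted group was the lowest of all. Mcm5 (chromosome 8, 75109528 to 75128439), another subunit of the ring, had 163, 239, 254 and 262 CPM in depleted and 319.9, 277, 268 and 258 CPM in WT anti-PD-L1 tumours. In untreated tumours Mcm5 had 246, 222, 233 and 234 CPM in depleted and 321, 292, 298 and 340.4 CPM in WT mice. Mcm5 had the same layout as Mcm2, with overlap only under anti-PD-L1, and the pair had an r of 0.96 over the 16 libraries. Mcm7 (chromosome 5, 138164583 to 138172422), also of the ring, had 81.3, 97.8, 114 and 119 CPM in depleted and 116, 97.1, 82.1 and 71.5 CPM in WT anti-PD-L1 tumours. In untreated tumours Mcm7 had 91.8, 53.9, 88.2 and 88.0 CPM in depleted and 123, 129, 127 and 128 CPM in WT mice. Mcm7 in depleted untreated tumours lay below all WT untreated libraries, lowest in B, and in WT mice all anti-PD-L1 libraries lay below all untreated ones. Mcm3 (152 to 293 CPM over the 16 libraries), Mcm4 (50.8 to 100.2 CPM) and Mcm6 (138 to 257 CPM) had the other layout: all depleted anti-PD-L1 libraries lay below all WT anti-PD-L1 libraries, and the untreated groups overlapped. Their log2 differences, depleted minus WT under anti-PD-L1, were -0.47 ± 0.12, -0.54 ± 0.15 and -0.46 ± 0.14 (SE), and none passed the edgeR test (adjusted p = 0.0565, 0.076 and 0.0907). Among the 15 pairs of subunits r ran from -0.24 for Mcm4 with Mcm7 to 0.96, over libraries that share their depth and GC slope.

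Cdt1, Gins2, Pcna and Cdc6, which act in licensing and at the fork, had lower means in depleted than in WT untreated tumours. Cdt1 (chromosome 8, 122568015 to 122573128), which loads the helicase, had 44.7, 71.4, 75.0 and 70.2 CPM in depleted and 77.7, 63.4, 59.0 and 50.5 CPM in WT anti-PD-L1 tumours. In untreated tumours Cdt1 had 60.8, 45.2, 45.6 and 53.1 CPM in depleted and 83.4, 74.3, 85.6 and 92.1 CPM in WT mice. All depleted untreated libraries lay below all WT untreated ones, whereas the anti-PD-L1 groups overlapped and depleted library A was the lowest. The whole span of Cdt1 is shared with other gene models, of which Gm20388 overlaps it most, and the same holds for Gins2. How reads in the shared part were counted was not given. Gins2 (chromosome 8, 120578633 to 120589304), a subunit of the GINS complex that completes the active helicase, had 54.6, 57.9, 61.0 and 65.0 CPM in depleted and 51.5, 44.2, 47.5 and 38.6 CPM in WT anti-PD-L1 tumours. In untreated tumours Gins2 had 51.3, 34.8, 52.1 and 61.7 CPM in depleted and 80.7, 64.7, 73.3 and 70.7 CPM in WT mice. Gins2 was the S phase gene with both directions: all depleted anti-PD-L1 libraries lay above the WT ones, and all depleted untreated libraries lay below the WT ones. Pcna (chromosome 2, 132249162 to 132253314), the sliding clamp of the polymerases, had 166, 142, 148 and 142 CPM in depleted and 196, 185, 179.5 and 142 CPM in WT anti-PD-L1 tumours. In untreated tumours Pcna had 115, 191, 136 and 113 CPM in depleted and 186, 194, 165 and 169 CPM in WT mice. Pcna in depleted untreated libraries A, C and D lay below all 4 WT untreated libraries, B reached the WT range, and the anti-PD-L1 groups overlapped. Cdc6, the loader that acts with Cdt1 (17.0 to 33.8 CPM over the 16 libraries), was lower in every depleted untreated library than in every WT untreated one. The log2 differences, depleted minus WT untreated, were -0.71 ± 0.17 for Cdt1, -0.53 ± 0.15 for Gins2, -0.36 ± 0.15 for Pcna and -0.52 ± 0.15 for Cdc6, of which none passed (edgeR adjusted p = 0.0528, 0.0911, 0.216 and 0.0965).

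Enzymes of nucleotide supply went separate ways. Rrm1 (chromosome 7, 102441695 to 102469771), the large subunit of ribonucleotide reductase, had 129, 157, 154 and 149 CPM in depleted and 241, 241, 259.6 and 418 CPM in WT anti-PD-L1 tumours. In untreated tumours Rrm1 had 157, 413, 199.6 and 133 CPM in depleted and 179.9, 189, 150.3 and 186 CPM in WT mice. Depleted anti-PD-L1 libraries all lay below WT anti-PD-L1 ones, and both high values, in WT anti-PD-L1 D and depleted untreated B, belonged to the libraries with the steepest GC slopes. Rrm2 (chromosome 12, 24708241 to 24714146), its small subunit, had 125, 143, 127 and 123 CPM in depleted and 175, 173, 172 and 231 CPM in WT anti-PD-L1 tumours. In untreated tumours Rrm2 had 99.5, 262, 159 and 84.5 CPM in depleted and 149, 184, 112 and 134 CPM in WT mice. Rrm2 was likewise lower in every depleted than in every WT anti-PD-L1 library, and in depleted untreated tumours it spanned the whole range of the series. Tyms (chromosome 5, 30058202 to 30073617), thymidylate synthase, had 51.2, 50.4, 52.7 and 55.1 CPM in depleted and 51.2, 41.8, 42.4 and 30.4 CPM in WT anti-PD-L1 tumours. In untreated tumours Tyms had 38.3, 40.2, 45.8 and 37.9 CPM in depleted and 63.5, 64.6, 53.4 and 62.0 CPM in WT mice. Tyms was lower in every depleted than in every WT untreated library. Under anti-PD-L1 depleted libraries were level with WT library A and above the other 3, and they lay above every depleted untreated library. Tyms has a GC content of 42.8%, among the lower ones of the set, and its r with the GC slope was 0.51, against -0.89 for Rrm1 and -0.87 for Rrm2.

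G1/S control genes divided in the same way. Ccnd1 (chromosome 7, 144929931 to 144939869), cyclin D1, had 237, 219, 232 and 225 CPM in depleted and 192, 210.4, 184 and 252 CPM in WT anti-PD-L1 tumours. In untreated tumours Ccnd1 had 276, 167, 245 and 291 CPM in depleted and 210.1, 205, 245 and 230.3 CPM in WT mice. Groups overlapped in all 4 comparisons, and the lowest and highest values both fell in depleted untreated tumours. Ccne1 (chromosome 7, 38097984 to 38107534), cyclin E1, had 38.2, 38.0, 43.0 and 39.9 CPM in depleted and 43.4, 46.5, 48.4 and 49.3 CPM in WT anti-PD-L1 tumours. In untreated tumours Ccne1 had 39.6, 57.6, 53.1 and 37.9 CPM in depleted and 44.5, 47.7, 40.7 and 39.4 CPM in WT mice. Every depleted anti-PD-L1 library lay below every WT anti-PD-L1 one by a narrow margin, and the untreated groups overlapped. Ccne2 (chromosome 4, 11191351 to 11204779), cyclin E2, had 14.1, 10.9, 8.11 and 8.28 CPM in depleted and 10.7, 13.7, 14.8 and 27.2 CPM in WT anti-PD-L1 tumours. In untreated tumours Ccne2 had 5.70, 33.2, 11.7 and 5.26 CPM in depleted and 10.01, 10.7, 9.06 and 10.8 CPM in WT mice. Depleted untreated B and WT anti-PD-L1 D held the top values, and the groups overlapped throughout. Of the span of Ccne2, 41.9% is shared with other genes, of which Ints8 overlaps it most. E2f1 (chromosome 2, 154559407 to 154569892), an activating E2F factor, had 64.1, 85.7, 90.1 and 102 CPM in depleted and 77.8, 65.9, 59.9 and 53.7 CPM in WT anti-PD-L1 tumours. In untreated tumours E2f1 had 80.5, 32.8, 71.9 and 88.1 CPM in depleted and 117, 114, 90.0 and 98.2 CPM in WT mice. E2f1 was lower in every depleted than in every WT untreated library, with B lowest, and lower in every anti-PD-L1 than in every untreated WT library. Cdk2, the partner of cyclin E (277 to 481 CPM over the 16 libraries), and Cdk4, the partner of cyclin D (312 to 459 CPM), were also lower in every depleted than in every WT untreated library, with log2 differences of -0.48 ± 0.15 and -0.33 ± 0.13 that did not pass (edgeR adjusted p = 0.117 and 0.179).

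Among mitosis genes, Mki67 and Top2a had lower means in depleted than in WT anti-PD-L1 tumours, and neither passed the test there. Mki67 (chromosome 7, 135689788 to 135716379), the Ki-67 antigen found in cycling nuclei, had 149.5, 214, 189 and 162 CPM in depleted and 256, 269, 211 and 251 CPM in WT anti-PD-L1 tumours. In untreated tumours Mki67 had 159.8, 204, 204 and 146 CPM in depleted and 151, 169, 129 and 221 CPM in WT mice. The top 3 values of the series were those of WT anti-PD-L1 A, B and D, and within anti-PD-L1 tumours only depleted library B reached the WT range. Top2a (chromosome 11, 98992943 to 99024189), topoisomerase II alpha, which untangles copied DNA, had 225, 264, 258 and 213 CPM in depleted and 359, 381, 385 and 409.9 CPM in WT anti-PD-L1 tumours. In untreated tumours Top2a had 249, 453, 297 and 217 CPM in depleted and 283, 274, 255 and 274 CPM in WT mice. Depleted anti-PD-L1 libraries all lay below WT anti-PD-L1 ones, WT libraries were all higher with anti-PD-L1 than without, and depleted untreated libraries lay on both sides of the WT untreated ones, with B and C above and A and D below them. Foxm1 (chromosome 6, 128362967 to 128375893), the factor that turns on mitotic genes, had 91.5, 124, 124 and 111 CPM in depleted and 136, 119.6, 128 and 157 CPM in WT anti-PD-L1 tumours. In untreated tumours Foxm1 had 123, 154, 126 and 106 CPM in depleted and 96.9, 118, 98.8 and 112 CPM in WT mice. All WT anti-PD-L1 libraries lay above the WT untreated ones, and depleted and WT groups overlapped under both treatments. Cdk1 (chromosome 10, 69336635 to 69352938), the mitotic kinase, had 151, 148, 133 and 154 CPM in depleted and 206, 178, 172 and 141 CPM in WT anti-PD-L1 tumours. In untreated tumours Cdk1 had 119, 187, 162 and 109 CPM in depleted and 179, 197, 146 and 166 CPM in WT mice. Cdk1 groups overlapped in all 4 comparisons. Ccnb1 (chromosome 13, 100778650 to 100786570), cyclin B1, had 39.1, 39.1, 39.5 and 37.6 CPM in depleted and 54.9, 49.8, 53.7 and 47.9 CPM in WT anti-PD-L1 tumours. In untreated tumours Ccnb1 had 30.3, 65.9, 43.9 and 25.5 CPM in depleted and 42.4, 45.4, 40.9 and 41.8 CPM in WT mice. Depleted anti-PD-L1 values were close together and all below WT anti-PD-L1, while depleted untreated libraries went from the lowest of the series in D to the highest in B.

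Mitotic kinases and their regulators split by direction. Aurkb (chromosome 11, 69045647 to 69051664), the kinase of the chromosomal passenger complex, had 69.3, 81.6, 84.1 and 83.8 CPM in depleted and 92.6, 75.1, 72.8 and 60.9 CPM in WT anti-PD-L1 tumours. In untreated tumours Aurkb had 72.4, 57.6, 73.9 and 65.8 CPM in depleted and 104, 104, 93.3 and 101 CPM in WT mice. Every depleted untreated library lay below every WT untreated one, every WT anti-PD-L1 library lay below every WT untreated one, and the anti-PD-L1 groups overlapped. Plk1 (chromosome 7, 122159437 to 122169875), a kinase of spindle and centrosome, had 78.9, 90.8, 91.8 and 94.2 CPM in depleted and 91.7, 68.0, 62.7 and 46.0 CPM in WT anti-PD-L1 tumours. In untreated tumours Plk1 had 84.4, 38.8, 60.1 and 72.9 CPM in depleted and 99.5, 103, 90.0 and 105 CPM in WT mice. Depleted untreated libraries all lay below WT untreated ones, and the anti-PD-L1 groups overlapped through WT library A. Cdc20 (chromosome 4, 118432901 to 118437352), the activator of the anaphase-promoting complex, had 63.6, 56.8, 64.4 and 71.9 CPM in depleted and 55.3, 43.7, 36.6 and 26.6 CPM in WT anti-PD-L1 tumours. In untreated tumours Cdc20 had 62.3, 28.7, 51.4 and 55.8 CPM in depleted and 66.7, 78.3, 70.0 and 70.4 CPM in WT mice. Cdc20 was higher in every depleted than in every WT anti-PD-L1 library and lower in every depleted than in every WT untreated library. Bub1 (chromosome 2, 127801122 to 127831865), a kinase of the spindle checkpoint, had 45.9, 40.7, 38.4 and 31.6 CPM in depleted and 52.1, 63.8, 54.9 and 91.5 CPM in WT anti-PD-L1 tumours. In untreated tumours Bub1 had 24.2, 114, 44.0 and 20.6 CPM in depleted and 42.2, 43.0, 36.0 and 43.0 CPM in WT mice. Bub1 was lower in every depleted than in every WT anti-PD-L1 library, and its top values again fell in depleted untreated B and WT anti-PD-L1 D. Nusap1 (chromosome 2, 119618298 to 119651244), a spindle microtubule protein, had 36.7, 25.8, 25.3 and 24.5 CPM in depleted and 32.5, 41.1, 42.6 and 56.3 CPM in WT anti-PD-L1 tumours. In untreated tumours Nusap1 had 21.4, 84.6, 35.7 and 23.2 CPM in depleted and 26.9, 28.2, 21.3 and 23.0 CPM in WT mice. Nusap1 had the same 2 top libraries and its r with the GC slope was -0.99, while depleted anti-PD-L1 library A overlapped the WT range.

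The other 16 mitosis genes repeated these layouts. Of the spindle checkpoint proteins, Bub1b ran from 63.4 to 126 CPM and Ttk from 9.68 to 24.5 CPM over the 16 libraries, both lower in every depleted than in every WT anti-PD-L1 library. Of the motors and bundlers of the spindle, Kif11 (36.7 to 99.5 CPM), Prc1 (66.8 to 104 CPM) and Tpx2, which activates Aurora A (87.8 to 137 CPM), had that layout, and Kif20a (75.7 to 113 CPM) and Kif23 (48.7 to 79.2 CPM) of cytokinesis did not. Cyclin A2, Ccna2 (92.5 to 230.4 CPM), had it too, and cyclin B2, Ccnb2 (56.8 to 89.2 CPM), did not. The centromere proteins Cenpa (55.8 to 87.9 CPM), Cenpe (21.0 to 51.0 CPM) and Cenpf (41.1 to 80.2 CPM) overlapped between depleted and WT tumours under both treatments, as did Aurka (60.0 to 84.2 CPM), the phosphatase Cdc25c (20.9 to 44.4 CPM), Birc5, the survivin of the passenger complex (60.6 to 107 CPM), and Ube2c (28.5 to 67.5 CPM). Kif20a shares 26.8% of its span with other genes, Ube2c 18.6%, Cdk4 13.8% and Ccna2 11.9%. The gene that overlaps most is Cdc23, Tnnc2, Tspan31 and Exosc9 in that order. Depleted untreated B was the highest library in 17 of the 45 genes and depleted untreated D the lowest in 17.

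**Figure D2:**
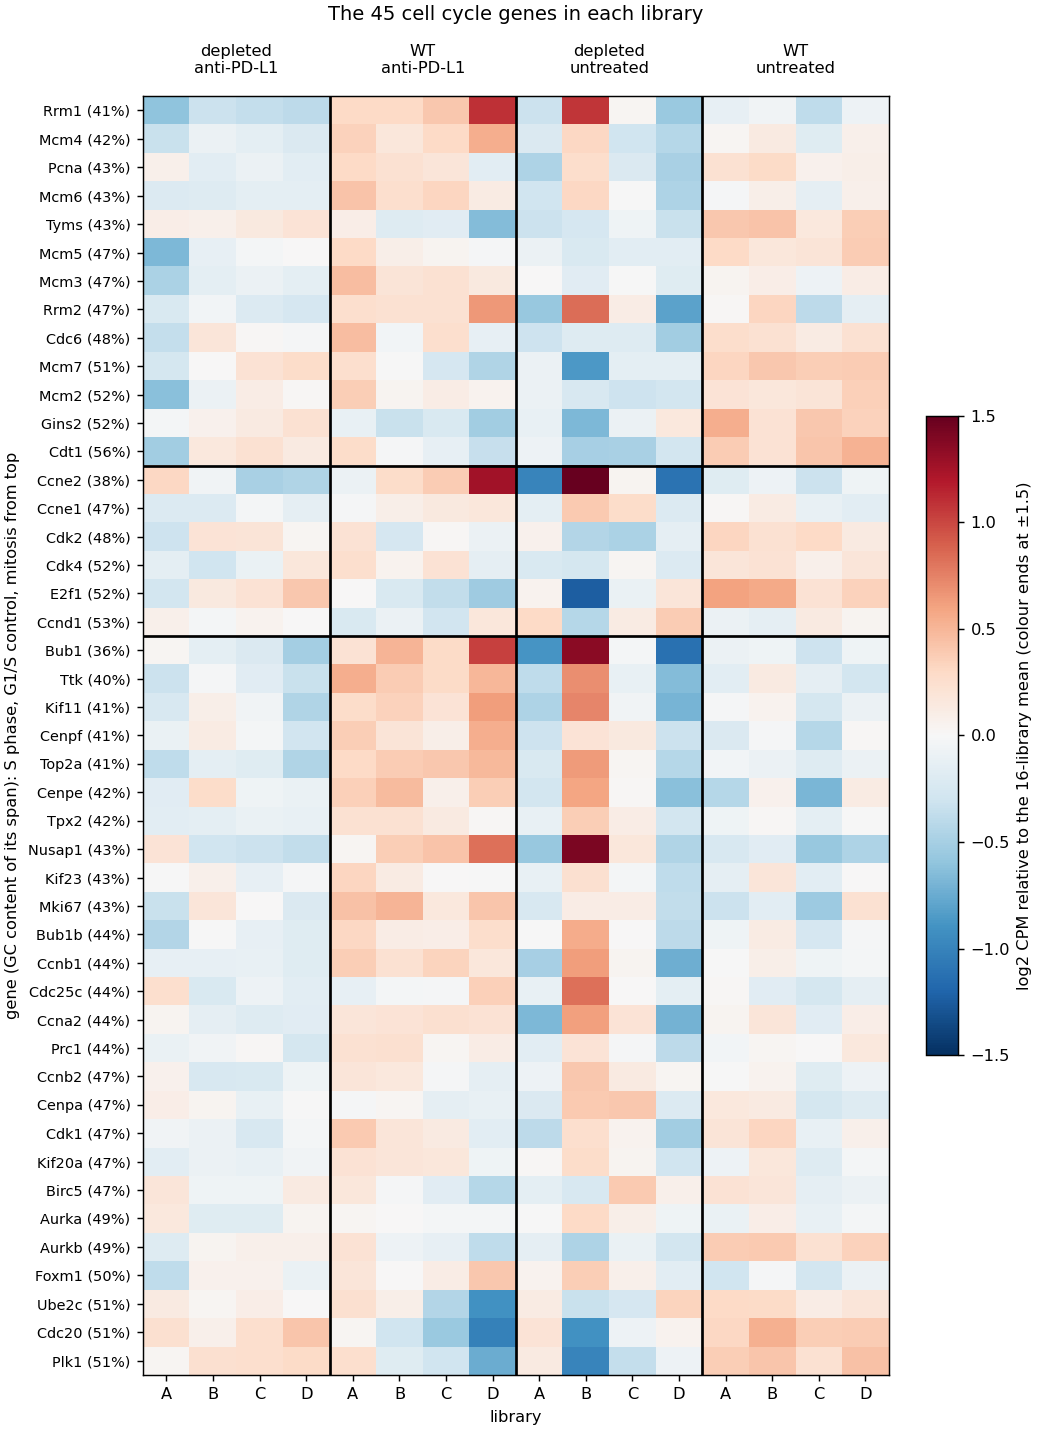
Log2 CPM of the 45 genes (down) in the 16 libraries (across), relative to the mean of each gene over the libraries. Lines part the 4 groups and the 3 lists, and genes of each list run from low to high GC content of their span. Depleted untreated B is red for most genes of low GC content and blue for Plk1, Cdc20 and E2f1, and depleted untreated D is the lowest library for 17 genes.

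B cell depletion was first compared in anti-PD-L1 tumours. Depleted tumours were below WT ones in the fit for 32 of the 45 genes and above for 13, with a median log2 change of -0.25, beside 0.03 over all genes tested. The medians were -0.27 in S phase, -0.06 in G1/S control and -0.26 in mitosis. All 4 depleted libraries were lower than all 4 WT libraries for 15 genes (33.3%), beside 11.8% of all genes. These were 5 S phase genes, Ccne1 and 9 mitosis genes. They were higher for 2 genes, Gins2 and Cdc20, which makes 17 genes without overlap in either direction (37.8%), beside 21.8% of all genes. The largest fitted differences were -0.98 ± 0.27 for Rrm1 and -0.75 ± 0.38 for Bub1 on the lower side and 0.66 ± 0.21 for Cdc20 and 0.41 ± 0.23 for E2f1 on the higher side (log2 ± SE). By the edgeR quasi-likelihood test with Benjamini-Hochberg adjustment over all genes, 0 of 45 genes passed at an adjusted p under 0.05, beside 0.698% of all genes. The lowest adjusted p was 0.0565, for Mcm3, and 15 genes (33.3%) had an unadjusted p under 0.05, beside 25.0% of all genes. DESeq2 called 6 genes (7.72% of all genes), of which Cdc20 was higher and Mcm3, Mcm4, Mcm6, Rrm1 and Top2a were lower, and limma-voom called 0 (0.372%).

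This count depended on library B of the depleted untreated group, which is in neither group compared but enters the filter, the normalization and the shared estimate of spread. Without it edgeR called 15 genes, beside 18.6% of all genes. They were Cdc20 (0.68 ± 0.16), E2f1 (0.43 ± 0.15) and Gins2 (0.41 ± 0.11) on the higher side, and on the lower side 12 genes that included Rrm1 (-0.96 ± 0.17), Bub1 (-0.73 ± 0.21), Top2a (-0.66 ± 0.11), Ttk (-0.62 ± 0.14), Mcm4 (-0.52 ± 0.11) and Mcm3 (-0.45 ± 0.11). A fit of the 2 groups alone also called 15 genes, 2 higher and 13 lower, beside 14.3% of all genes. Without depleted untreated library D 4 genes passed, all lower, beside 2.64% of all genes. With the GC slope as a covariate in all 16 libraries none passed, but the slopes of the 2 groups compared did not overlap, so slope and group varied together.

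**Figure D3:**
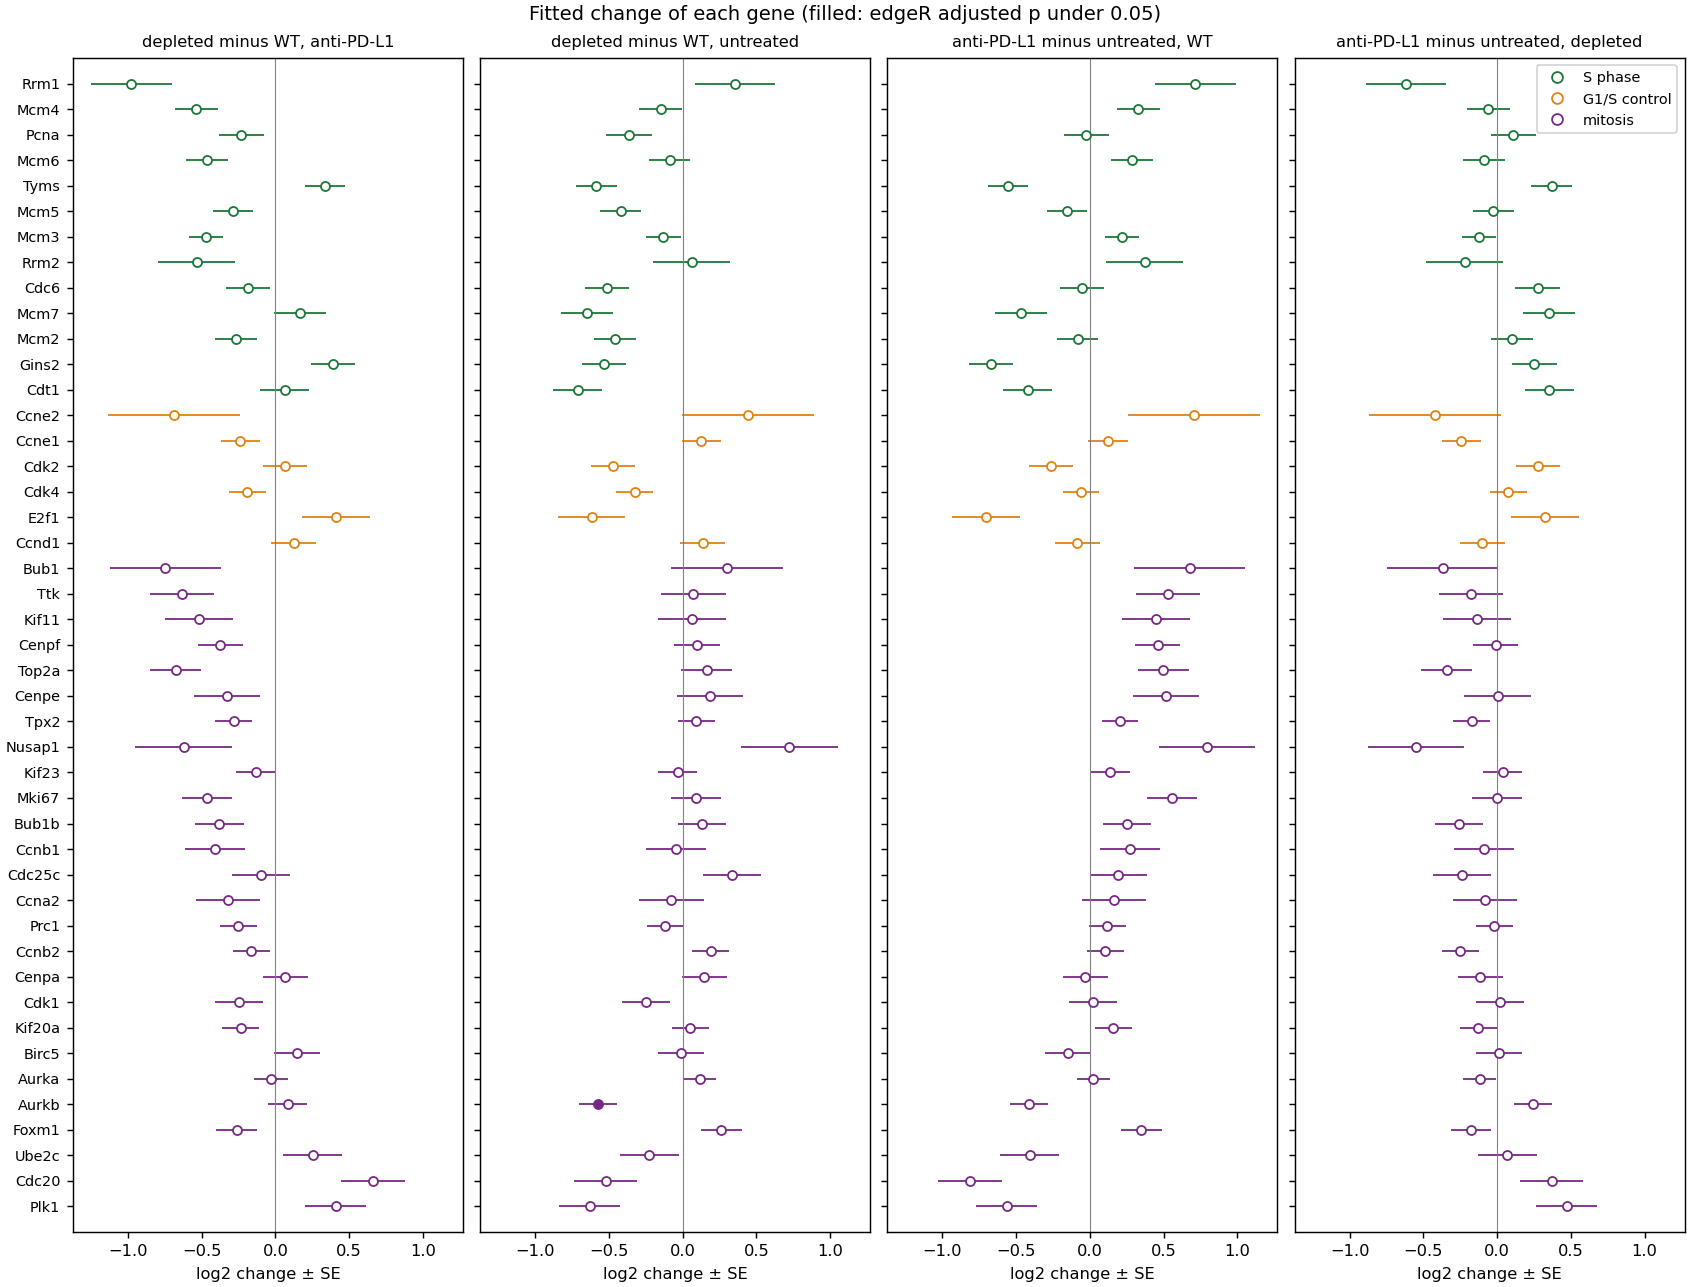
Fitted log2 change of each of the 45 genes with its SE (edgeR, 16 libraries) in the 4 pairwise comparisons, for S phase (green), G1/S control (orange) and mitosis (purple), each in order of GC content. Filled points have an adjusted p under 0.05. Aurkb in the untreated comparison, at -0.57, is the only filled point.

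In untreated tumours depleted mice were below WT mice in the fit for 11 of 13 S phase genes, with a median log2 change of -0.42, 3 of 6 G1/S genes, with a median of -0.10, and 10 of 26 mitosis genes, with a median of 0.08. The median over all genes tested was 0.04. All 4 depleted libraries were lower than all 4 WT libraries for 13 genes (28.9%), beside 8.44% of all genes, and higher for 0, beside 4.27%. The 13 were Mcm2, Mcm5, Mcm7, Cdc6, Cdt1, Gins2 and Tyms of S phase, Cdk2, Cdk4 and E2f1 of G1/S control and Aurkb, Cdc20 and Plk1 of mitosis. Aurkb fell, with a log2 change of -0.57 ± 0.13 (edgeR adjusted p = 0.0469), and was the 1 gene of 45 called (2.22%), beside 0.889% of all genes called and 0.677% called lower. The largest differences otherwise were -0.71 ± 0.17 for Cdt1 and -0.65 ± 0.18 for Mcm7, and on the higher side 0.72 ± 0.33 for Nusap1 and 0.44 ± 0.45 for Ccne2, and these 4 did not pass. DESeq2 called 7 genes (5.24% of all genes), all lower, 6 of them of S phase, and limma-voom called Tyms, Cdt1 and Aurkb (1.16%).

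The Aurkb call was near the threshold. Leaving out 1 library at a time gave log2 changes from -0.61 to -0.49 and adjusted p from 0.0255 to 0.139, and the call held only without library A or D of the WT anti-PD-L1 group or library A of the depleted anti-PD-L1 group. Without depleted untreated B the adjusted p of Aurkb was 0.0673 and Pcna was the 1 gene called, at -0.54 ± 0.12, beside 1.03% of all genes. When the GC slope entered the fit, 10 genes passed, all lower, beside 4.20% of all genes. They were Cdc6, Cdt1, Gins2, Mcm7, Pcna and Tyms of S phase, Ccne2 of G1/S control and Aurkb, Bub1 and Ccna2 of mitosis, at log2 changes from -0.62 for Ccne2 to -0.39 for Gins2. Ccne2 and Bub1 had log2 changes of 0.44 and 0.30 without the covariate, so their direction turned with it. The slope was computed from these same expression values, so biology that varies along GC content enters it as well. No gene of the 45 was lower in every depleted library under both treatments, beside 0.0931% of all genes.

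Anti-PD-L1 was compared with no treatment within each kind of mouse. In WT mice 27 of the 45 genes were above untreated and 18 below, with a median log2 change of 0.12, beside -0.01 over all genes, and the median was -0.05 in S phase, -0.07 in G1/S control and 0.18 in mitosis. All 4 anti-PD-L1 libraries were higher than all 4 untreated ones for 13 genes (28.9%), beside 14.7% of all genes, 4 of them of S phase and 9 of mitosis. They were lower for 6 genes (13.3%), beside 16.4%, namely Mcm7, Gins2, Tyms, E2f1, Aurkb and Cdc20. The largest fitted changes were 0.79 ± 0.33 for Nusap1, 0.71 ± 0.27 for Rrm1, -0.81 ± 0.21 for Cdc20 and -0.71 ± 0.23 for E2f1. No gene of the 45 passed in edgeR, beside 0.00517% of all genes, although 17 (37.8%) had an unadjusted p under 0.05, beside 26.4% of all genes, and the lowest adjusted p was 0.0766, for Gins2. DESeq2 called 7 (10.5% of all genes), with Mki67 and Cenpf higher and Cdc20, E2f1, Tyms, Gins2 and Aurkb lower, and limma-voom called 0 (0.103%).

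Without depleted untreated B, again in neither group, edgeR called 18 genes in WT mice, 11 higher and 7 lower, beside 21.0% of all genes. Nusap1 (0.80 ± 0.18), Rrm1 (0.72 ± 0.17) and Mki67 (0.56 ± 0.16) were among the higher and Cdc20 (-0.81 ± 0.16), E2f1 (-0.71 ± 0.15) and Gins2 (-0.67 ± 0.11) among the lower. A fit of the 2 WT groups alone called 22, beside 29.6%, and the fit with the GC slope called none. The slopes of the 2 WT groups did not overlap, so slope and group varied together here too. In depleted mice no gene passed, beside 0.0672% of all genes. The lowest adjusted p there was 0.334, for Tyms, and 4 genes (8.89%) had an unadjusted p under 0.05, beside 10.4% of all genes. Tyms was the only gene with every anti-PD-L1 library above every untreated one (2.22%), beside 2.61% of all genes, and no gene had every one below, beside 2.23%. The largest fitted changes in depleted mice were 0.47 ± 0.21 for Plk1, 0.37 ± 0.21 for Cdc20, -0.62 ± 0.27 for Rrm1 and -0.55 ± 0.33 for Nusap1. DESeq2 and limma-voom called 0 genes of the set there, beside 1.81% and 0.0414% of all genes.

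The B cell difference was not the same with and without anti-PD-L1 for 7 genes. This interaction is the depleted minus WT difference in anti-PD-L1 tumours minus that in untreated tumours. It was positive and passed for Cdc20 (1.18 ± 0.30, adjusted p = 0.0322), Plk1 (1.04 ± 0.29, adjusted p = 0.0418), Gins2 (0.92 ± 0.21, adjusted p = 0.0241), Tyms (0.92 ± 0.19, adjusted p = 0.0184) and Aurkb (0.66 ± 0.18, adjusted p = 0.0413) in edgeR. It was negative and passed for Rrm1 (-1.33 ± 0.39, adjusted p = 0.0458) and Top2a (-0.84 ± 0.24, adjusted p = 0.047). The 5 positive genes include a DNA synthesis enzyme, a helicase factor and 3 regulators of mitosis. Their differences under anti-PD-L1 were 0.66 ± 0.21 for Cdc20, 0.41 ± 0.21 for Plk1, 0.39 ± 0.15 for Gins2, 0.34 ± 0.14 for Tyms and 0.08 ± 0.13 for Aurkb. None of these passed, and groups overlapped for Plk1, Tyms and Aurkb. In untreated tumours the differences were -0.52, -0.63, -0.53, -0.59 and -0.57 in the same order, of which only that of Aurkb passed. Rrm1 and Top2a had differences of -0.98 ± 0.27 and -0.68 ± 0.17 under anti-PD-L1 and of 0.35 ± 0.27 and 0.16 ± 0.17 without. The 7 genes are 15.6% of the set, beside 7.62% of all genes, with 4.75% of all genes called higher and 2.87% lower. Nusap1 had the most negative value, -1.34 ± 0.46, and E2f1 the third most positive, 1.03 ± 0.33, and both missed the threshold (adjusted p = 0.0729 and 0.0567).

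**Figure D4:**
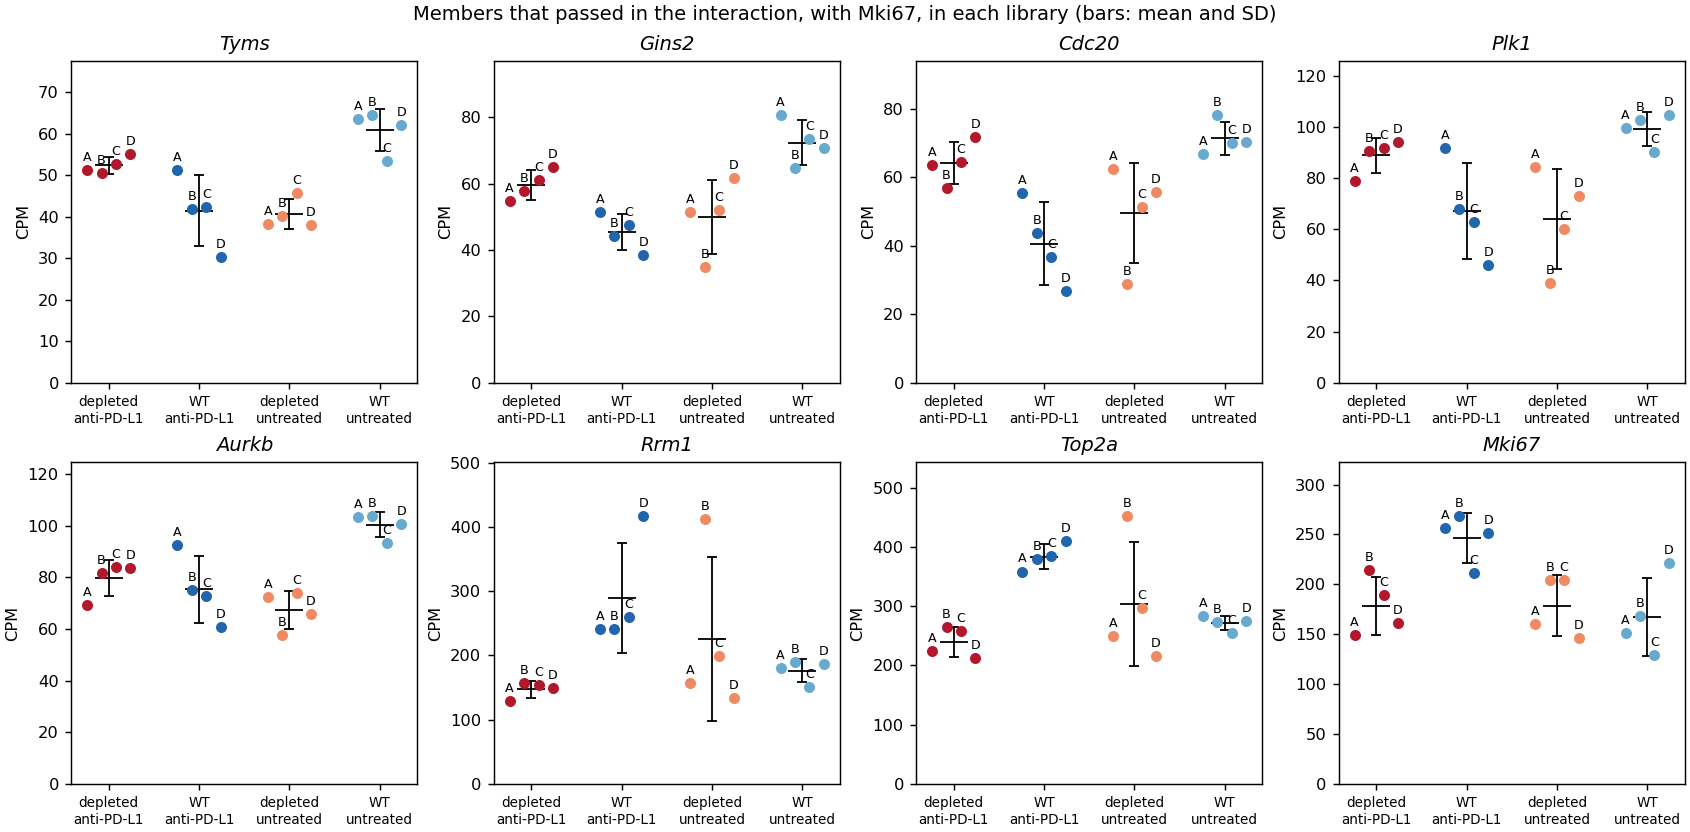
CPM of the 7 genes that passed in the interaction, with Mki67, in libraries A to D of each group, on axes that start at 0. Bars give the group mean and SD. Cdc20 and Gins2 lie higher in all depleted than in all WT anti-PD-L1 libraries and lower in all depleted than in all WT untreated libraries, and Rrm1 is highest in WT anti-PD-L1 D and depleted untreated B.

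Without depleted untreated B the same 7 genes passed and E2f1 joined them, beside 8.17% of all genes, with values from 0.59 ± 0.17 for Aurkb to 0.99 ± 0.24 for Cdc20 on the positive side, and -0.87 ± 0.24 for Rrm1 and -0.58 ± 0.16 for Top2a. Over all 16 fits that left out 1 library the count ran from 1, without depleted anti-PD-L1 C, WT anti-PD-L1 D, WT untreated A or WT untreated C, to 14, without depleted untreated D, beside 19.9% of all genes. With the GC slope as a covariate none of the 7 passed. Their adjusted p then lay between 0.0543 and 0.548, Tyms kept a log2 value of 0.87 while Rrm1 had -0.28, and Ccne2 was the 1 gene called, at 0.92, where its value without the covariate was -1.13. DESeq2 called 11 genes of the set in the interaction, beside 17.8% of all genes, and limma-voom 7, beside 7.81%. A test for any difference among the 4 groups called 0 genes in edgeR, beside 0.683% of all genes, with 20 (44.4%) at an unadjusted p under 0.05, beside 23.7%, and Tyms lowest at an adjusted p of 0.068. It called 22 without depleted untreated B, beside 21.8%, 13 in DESeq2, beside 12.3%, and 0 in limma-voom, beside 0.801%.

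The direction of change in each comparison followed the GC content of the genes. Over the 45 genes r of log2 change with GC content was 0.72 for depleted against WT under anti-PD-L1 and -0.60 for depleted against WT untreated. It was -0.76 for anti-PD-L1 against untreated in WT mice, 0.60 in depleted mice and 0.72 for the interaction. The same r over all 19340 genes was 0.37, -0.30, -0.49, 0.25 and 0.43. Genes share libraries and are not independent, so these values carry no p. The 11 genes with a GC content of at least 50% had a median interaction of 0.77, beside 0.45 over all genes of that GC content, and 9 of the 11 were positive. The 21 genes below 45% had a median of -0.47, beside -0.33, and 2 of the 21 were positive. Those 2 were Tyms and Pcna. In the untreated comparison the medians were -0.52 for the 11, beside -0.15 over all genes of that GC content, and 0.09 for the 21, beside 0.16. Under anti-PD-L1 they were 0.17 for the 11, beside 0.29, and -0.41 for the 21, beside -0.19. The part of GC-dependent recovery in them was not tested.

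**Figure D5:**
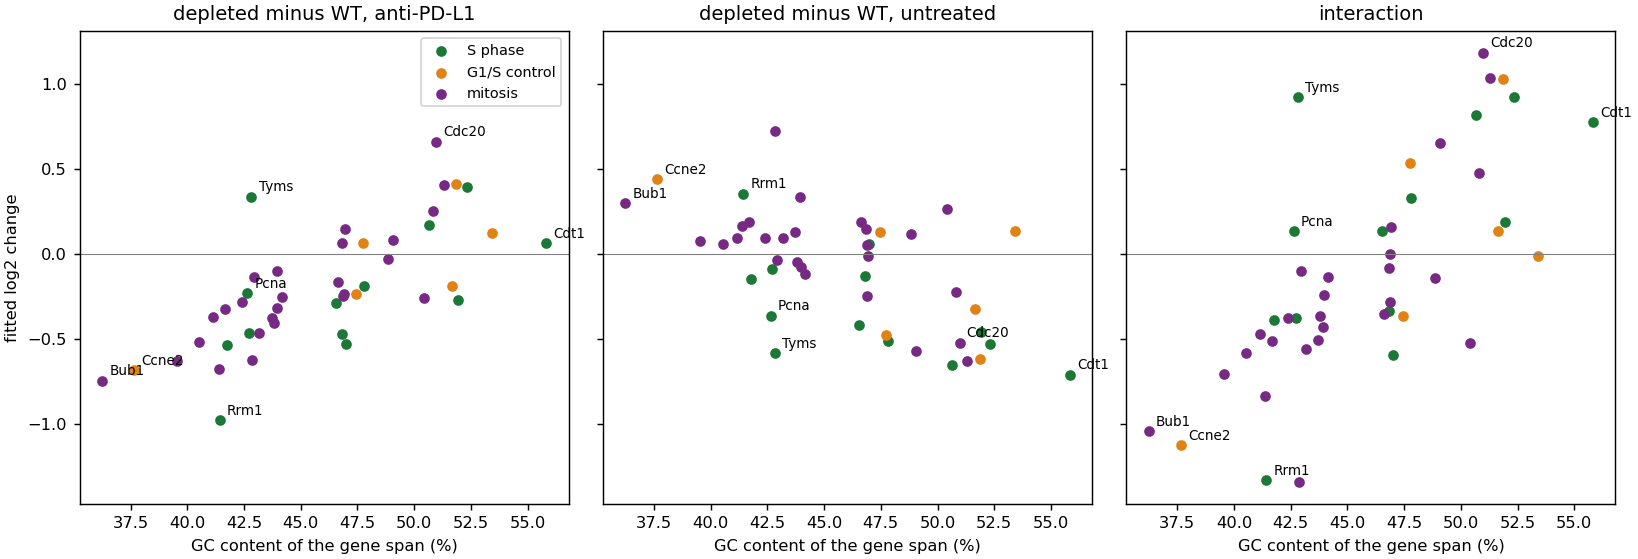
Fitted log2 change of the 45 genes against the GC content of their span in percent, for the B cell difference under anti-PD-L1, the B cell difference without treatment and the interaction. Each point is a gene, coloured by list. Change rises with GC content in the outer panels (r = 0.72 in both) and declines with it in the middle panel (r = -0.60), and Tyms lies above the trend in the interaction.

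Other genes of the cell cycle machinery were counted on 7 lists of 145 genes, of which 142 were tested. EdgeR called 0 of them in each of the 4 pairwise comparisons and 14 (9.86%) in the interaction, beside 7.62% of all genes. At an unadjusted p under 0.05 there were 56 (39.4%) for depletion under anti-PD-L1, beside 25.0% of all genes, 26 (18.3%) for depletion in untreated tumours, beside 19.2%, 54 (38.0%) for anti-PD-L1 in WT mice, beside 26.4%, and 7 (4.93%) for anti-PD-L1 in depleted mice, beside 10.4%. In the same order DESeq2 called 11 (7.75%), 5 (3.52%), 16 (11.3%) and 0 of them, beside 7.72%, 5.24%, 10.5% and 1.81% of all genes, and limma-voom called 0 in each. The counts of the single lists in the interaction are small and are given as a description. Of 18 tested CDK inhibitors and pocket proteins 2 passed, the inhibitor Cdkn2d at 1.10 and Pkmyt1, the kinase that holds back Cdk1, at 0.87. Of 11 genes of the p53 arrest response 3 passed, Trp53 itself at 1.07, the kinase Plk3 at 1.49 and Ccng1 at -1.69. Of 39 origin, polymerase and fork genes 2 passed, thymidine kinase Tk1 at 0.75 and the clamp loader subunit Rfc4 at -1.64. Of 16 genes of the anaphase-promoting complex and its partners 4 passed, the subunits Anapc11 at 1.05 and Cdc26 at -0.64, the activator Fzr1 at 1.23 and the conjugating enzyme Ube2s at 1.72. Of 18 condensin and cohesin genes 1 passed, the cohesin subunit Rad21 at -0.85. Of 20 kinetochore and checkpoint genes 2 passed, Spc24 at 0.83 and Cdca8, the borealin of the passenger complex, at 1.31, and of 20 spindle and cytokinesis genes 0 passed, with 7 at an unadjusted p under 0.05, beside 30.8% of all genes.

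Several of these lists went with the mitosis genes more closely than with the S phase genes. Over the 16 libraries the mitosis score had an r of 0.95 with the score of origin, polymerase and fork genes, 0.95 with kinetochore and checkpoint genes and 0.94 with condensin and cohesin genes, where the S phase score had 0.65, 0.59 and 0.52. All 4 depleted anti-PD-L1 libraries were lower than all 4 WT ones for 12 of 18 condensin and cohesin genes (66.7%), 12 of 20 spindle and cytokinesis genes (60.0%) and 15 of 39 origin and fork genes (38.5%), beside the 11.8% of all genes given above. In untreated tumours these numbers were 0, 2 and 5, beside the 8.44% given above. The S phase score had an r of -0.68 with the score of the p53 arrest genes (rho = -0.53, -0.55 without the 2 libraries of most distant p53 score), and the median log2 change of those 11 genes was 0.00 in depleted against WT anti-PD-L1 tumours and 0.29 in depleted against WT untreated tumours, of which none passed.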

How the data were processed

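RNA from 16 tumours, freed of ribosomal RNA, was sequenced with a kit for the Ion sequencers. The authors deposited raw read counts of 38087 genes on build mm10. The aligner and counter were "not given in the sources used here". Gene length was listed as the whole span, introns included, for each of the 38087 genes and spans of 14522 genes (38.1%) overlap another gene. The deposited table also gives the GC content of each span in percent. Log2 values in another deposited table had been normalized by the authors (DESeq, per the labels, with no version), and 13 damaged cells of it were left out; it served as an alternative on 25934 genes. A further 32 columns of per-library values were not used, nor were the fold changes, p-values and enrichments of the authors' own comparisons.

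Counts were tested in R 4.3.3 with edgeR 4.0.16 (TMM, filterByExpr, robust quasi-likelihood F test, two-sided, 1 fit of 4 groups), adjusted by Benjamini-Hochberg over all 19340 genes and called at an adjusted p under 0.05. Total counts of 12.5 to 35.6 M per library set the counting precision, and the lowest count of any of the 45 genes was 129. Log2 CPM was computed with a prior count of 2. The GC slope was fitted over genes averaging 1 CPM or more. Alternatives were DESeq2 1.42.0 and limma 3.58.1 (voom), other size factors and filters, the compared groups alone, the GC slope as a covariate, leaving out each library, and for scores a prior count of 0.5. No libraries were found to be duplicates. The edgeR step was tested on simulated counts with the same dispersion for all genes, no GC gradient and no outlying library. That test does not bear on how the calls depend on single libraries or on the GC slope. Libraries are separate mice per the design text, and p-values measure the spread between them.

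The 45 genes and all gene lists were chosen with earlier results of these data known. Values in every library are given for genes called in edgeR, for a set of examples of each role, and for the 2 genes with the largest fitted rise and the 2 with the largest fitted fall in each comparison. Genes of other lists are named where called.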

Additional observations from a re-analysis of the deposited data

Results flagged for a closer look

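The B cell difference itself differed between anti-PD-L1 and untreated tumours, by the edgeR interaction term, for 7 of the 45 genes (15.6%), beside 7.62% of all genes. With the GC slope as a covariate none of the 7 passed. The log2 interaction was 1.18 for Cdc20, 1.04 for Plk1, 0.92 for Gins2, 0.92 for Tyms and 0.66 for Aurkb, and -1.33 for Rrm1 and -0.84 for Top2a, at adjusted p from 0.0184 to 0.047. Of 142 other cell cycle genes tested, 14 passed (9.86%). Among them the interaction was 1.72 for Ube2s, 1.49 for Plk3, 1.31 for Cdca8, 1.23 for Fzr1, 1.10 for Cdkn2d, 1.07 for Trp53, 1.05 for Anapc11, 0.87 for Pkmyt1, 0.83 for Spc24 and 0.75 for Tk1. It was -1.69 for Ccng1, -1.64 for Rfc4, -0.85 for Rad21 and -0.64 for Cdc26.

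In 10 of 104 sets of 4 libraries, made up of the 3 scores and the 23 genes shown in full in each group, 1 library lay far from the other 3 by Dixon's criterion, which chance meets in about 1 set in 20. The sets share libraries, and the scores hold some of the same genes, so the sets are not independent and their count is no test. Library A of the depleted anti-PD-L1 group, the shallowest, gave 4 of the 10. Its S phase score was -0.32 where the nearest library had -0.05, its Aurkb level was 69.3 CPM (nearest 81.6), its Cdt1 level 44.7 CPM (nearest 70.2) and its Nusap1 level 36.7 CPM (nearest 25.8). Library D of the WT anti-PD-L1 group had 231 CPM of Rrm2 (nearest 175) and 418 CPM of Rrm1 (nearest 259.6). Library C of the WT untreated group had an S phase score of 0.058 (nearest 0.20) and 36.0 CPM of Bub1 (nearest 42.2), and library D of that group had 587 CPM of Mcm2 (nearest 528). Library B of the depleted untreated group had 53.9 CPM of Mcm7 (nearest 88.0).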

How the results depend on the processing

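No value called with edgeR on all libraries changed direction under an alternative, while Ccne2 and Bub1, not called there, turned direction and were called with the GC slope as a covariate. Leaving out 1 library at a time gave from 0 to 15 of the 45 genes for depleted against WT under anti-PD-L1, 0 to 3 untreated, 0 to 18 for anti-PD-L1 in WT mice, 0 in depleted mice, 1 to 14 in the interaction and 0 to 22 for any difference. Calls over all genes moved as well, from 0 to 3656, 22 to 362, 0 to 4123, 0 to 70, 281 to 3890 and 3 to 4285 in the same order. In that order of comparisons, edgeR on all libraries gave 0, 1, 0, 0, 7 and 0, DESeq2 gave 6, 7, 7, 0, 11 and 13, and limma-voom gave 0, 3, 0, 0, 7 and 0. Shares of all genes were 0.698%, 0.889%, 0.00517%, 0.0672%, 7.62% and 0.683% in edgeR. They were 7.72%, 5.24%, 10.5%, 1.81%, 17.8% and 12.3% in DESeq2, and 0.372%, 1.16%, 0.103%, 0.0414%, 7.81% and 0.801% in limma-voom. The authors' log2 values in limma gave 0, 0, 0, 0, 1 and 0, and the GC slope as a covariate gave 0, 10, 0, 0, 1 and 2. For the 10 the share of all genes was 4.20%. Without a filter the interaction gave 4 and the untreated comparison 0, which was 0 also with a filter of at least 1 CPM in 4 libraries. The groups of a comparison alone gave 15, 0, 22 and 0 in the pairwise comparisons, beside 14.3% of all genes for the 15 and 29.6% for the 22. The interaction and the test of any difference were not run on fewer groups. Chosen after seeing the data, leaving out depleted untreated B together with WT anti-PD-L1 D gave 9, 4, 10, 0, 6 and 16, and the GC slope without depleted untreated B gave 0, 8, 0, 0, 1 and 1. The causes of these differences were not tested. Counts here that have no share of all genes beside them describe the fits and are not results about this set. Over genes whose span no other gene overlaps, S phase score differences were -0.36 (main -0.23) for depleted against WT under anti-PD-L1 and 0.10 (-0.05) for anti-PD-L1 in WT mice. G1/S differences over those genes were 0.075 (-0.08) and -0.36 (-0.21) for depleted against WT with and without anti-PD-L1, and -0.29 (-0.07) and 0.15 (0.07) for anti-PD-L1 in WT and depleted mice. No paired analysis was possible because the columns carry letters and the labels carry numbers. With 4 libraries a group and the spread of depleted untreated B in the shared estimate, a p above the threshold does not show that a gene stayed level.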
